A study of Arabidopsis thaliana with 4 samples.

Results

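The 44 genes described here are the nuclear genes of Arabidopsis thaliana that encode the chlorophyll-binding antenna proteins (LHCB for photosystem II, LHCA for photosystem I), nuclear-encoded subunits of both photosystems (PSA, PSB), the small subunit of Rubisco (RBCS) and Rubisco activase (RCA). They were taken by gene identifier from an expression table of 33602 genes, all 44 were found there, and all 44 reached the minimum level for a test. The table held 4 libraries of polyadenylated RNA from whole seedlings, 2 of wild type (WT, accession Col-0) and 2 of the jmj28-3 line, a line of JMJ28, which encodes a jumonji-domain protein of the histone demethylase type. Seedlings of both genotypes were 12 days old and had grown at 23 °C in long days of 16 h light and 8 h dark, on a medium that held 1% sucrose. The labels state neither the kind of lesion in jmj28-3 nor the hour of harvest. They also do not say whether the 2 libraries of a genotype were grown apart, and a p-value here therefore reflects the spread between libraries alone, which may be technical.

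Antenna proteins hold chlorophyll and carotenoids in the thylakoid membrane and pass the energy of absorbed light to the reaction centres. Photosystem II oxidises water at a manganese cluster that is shielded on the lumen side by the PSBO, PSBP and PSBQ proteins, and photosystem I hands electrons to ferredoxin on the stroma side. Rubisco fixes CO2 with large subunits encoded in the chloroplast and small subunits encoded in the nucleus, and RCA frees its active sites from bound sugar phosphates. Transcripts of these nuclear genes are known to rise with light and with signals from functional chloroplasts, to follow the circadian clock in many cases, and to be held down by sugars.

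Several of the genes are near copies of each other, which bears on their values below. LHCB1.1, LHCB1.2 and LHCB1.3 lie side by side on chromosome 1 and LHCB1.4 and LHCB1.5 on chromosome 2, and all 5 encode the same kind of LHCII protein in a single exon. Over the last 600 coding bases of the 5 copies, 85 columns varied. The 90 bases with the most variable columns are shown for each copy from the TAIR10.1 assembly, 5′ to 3′ on the coding strand. This stretch was chosen for differences among all 5 copies, not for LHCB1.4, the one copy that passed the test. At most of the marked columns LHCB1.4 has the same base as at least 1 other copy. Capitals mark the 18 columns at which the copies differ, and all 18 fall on the third base of a codon.
LHCB1.1, chr1:10475599-10475688, minus strand: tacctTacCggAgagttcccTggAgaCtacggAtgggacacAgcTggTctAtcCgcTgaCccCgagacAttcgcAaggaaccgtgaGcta
LHCB1.2, chr1:10472953-10473042, minus strand: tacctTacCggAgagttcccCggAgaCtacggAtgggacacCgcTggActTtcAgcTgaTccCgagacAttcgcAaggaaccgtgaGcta
LHCB1.3, chr1:10478275-10478364, plus strand: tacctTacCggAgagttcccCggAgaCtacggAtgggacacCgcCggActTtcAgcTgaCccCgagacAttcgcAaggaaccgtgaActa
LHCB1.4, chr2:14525019-14525108, plus strand: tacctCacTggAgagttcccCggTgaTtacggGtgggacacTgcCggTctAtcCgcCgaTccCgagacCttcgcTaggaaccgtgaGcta
LHCB1.5, chr2:14523226-14523315, minus strand: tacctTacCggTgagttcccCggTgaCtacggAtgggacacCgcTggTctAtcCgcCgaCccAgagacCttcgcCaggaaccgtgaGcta

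Over whole coding sequences, LHCB1.1, LHCB1.2 and LHCB1.3 were 95.6% to 96.4% identical to each other, LHCB1.4 was 91.4% identical to LHCB1.5, and LHCB1.4 was 86.8% to 88.2% identical to the 3 copies on chromosome 1. Of the RBCS copies on chromosome 5, RBCS1B and RBCS2B were 97.3% identical, and RBCS3B was 94.1% and 94.3% identical to them. Over the last 200 coding bases of RBCS1B, RBCS2B and RBCS3B 5 columns varied, and the 90 bases with the most variable columns hold 2 of them, in capitals below.
RBCS1B, chr5:15384460-15384549, minus strand: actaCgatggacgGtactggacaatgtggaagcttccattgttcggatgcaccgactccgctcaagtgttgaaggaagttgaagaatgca
RBCS2B, chr5:15381313-15381402, minus strand: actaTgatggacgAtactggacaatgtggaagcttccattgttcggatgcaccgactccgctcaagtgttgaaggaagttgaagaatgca
RBCS3B, chr5:15377611-15377700, minus strand: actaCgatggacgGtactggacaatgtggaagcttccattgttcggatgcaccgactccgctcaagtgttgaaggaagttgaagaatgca

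A read that falls in such a stretch can come from more than one gene. The share of windows of 50 bases in a gene's mRNA that also occur in the mRNA of another gene was 32.6% for RBCS1B, 28.2% for LHCB2.2, 21.4% for RBCS2B, 20.5% for LHCB1.1, 20.2% for LHCB2.1, 18.4% for RBCS3B, 17.3% for LHCB1.5, 17.0% for LHCB1.3, 13.7% for LHCB1.4, 10.6% for LHCB1.2, 8.76% for LHCA2 and 1.48% for RBCS1A. The other 32 genes had no shared window of that length. The values of those 12 genes are uncertain for this reason, and others may be, since the window length was a choice made here and the read length and the handling of shared reads are not stated in the labels.

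Levels were deposited as FPKM, fragments scaled by transcript length and by library size, a unit that allows levels of different genes to be set side by side. The 44 genes made up 23.2% and 23.3% of the summed FPKM in WT against 23.9% and 23.1% in jmj28-3. They held all 10 of the 10 genes with the highest mean FPKM, 37 of the first 50 and 40 of the first 100. Transcripts that define green tissue were thus at high levels in every library.

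**Figure D1:**
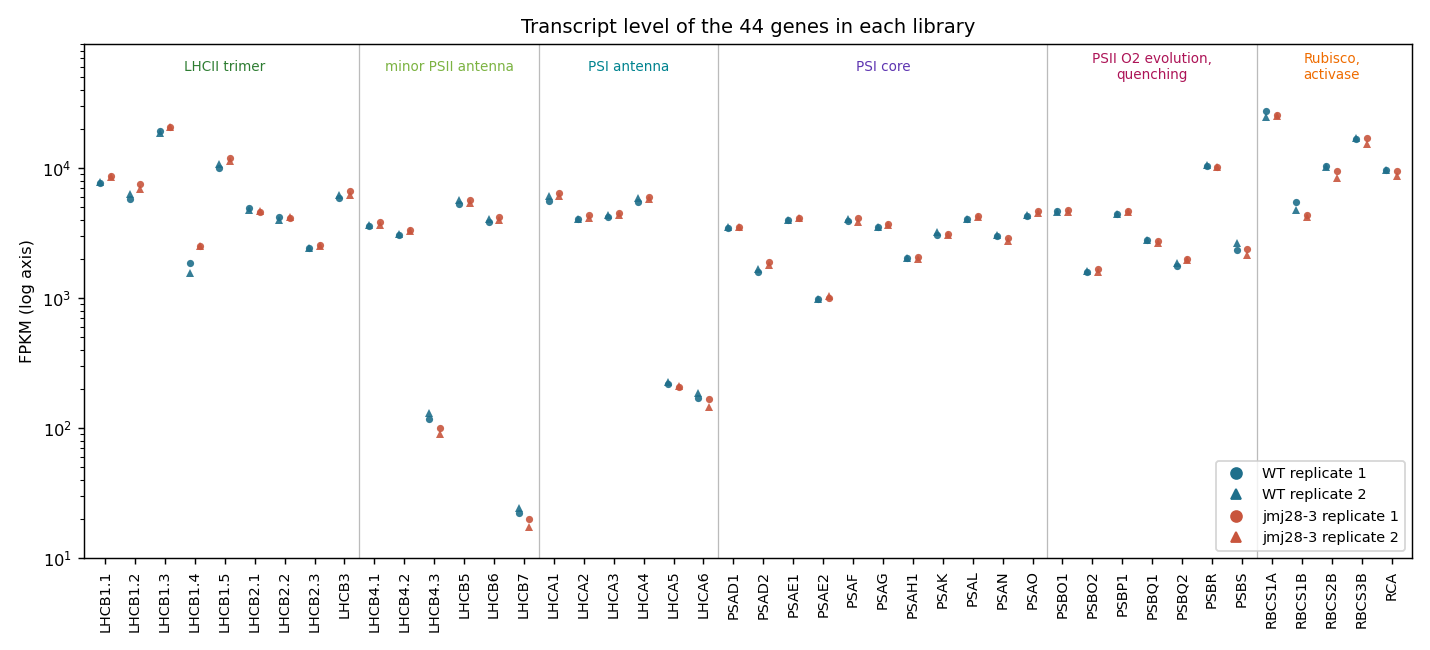
FPKM of each of the 44 genes (log axis) in the 2 WT libraries (blue) and the 2 jmj28-3 libraries (red), with circles for replicate 1 and triangles for replicate 2, in 6 families. The other 40 genes lie between 980 and 27686 FPKM in every library, while LHCB4.3, LHCB7, LHCA5 and LHCA6 lie below them all.

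The gene with the highest level was RBCS1A (AT1G67090), with 27686 and 24835 FPKM in WT against 25550 and 25338 in jmj28-3. LHCB1.3 (AT1G29930) followed at 19281 and 18509 FPKM in WT against 20582 and 20631 in jmj28-3, and RBCS3B at 16836 and 17012 in WT against 16900 and 15248 in jmj28-3. The mean over the 4 libraries then fell from 10985 FPKM for LHCB1.5 and 10298 for PSBR, a small lumenal protein of photosystem II, to 999.8 FPKM for PSAE2. Only 4 genes had lower means than PSAE2, and all 4 are antenna genes with special roles or rare use: LHCA5 at 215.7 FPKM, LHCA6 at 166.9, LHCB4.3 at 109.7 and LHCB7 at 20.9. LHCA5 and LHCA6 are known to link photosystem I to the NDH complex of cyclic electron flow. Neighbours in the middle of this order were not apart: PSBO1, PSBP1 and PSAO, for example, had means of 4641, 4509 and 4463 FPKM, with libraries that spanned 4561 to 4734 FPKM for PSBO1, 4388 to 4654 for PSBP1 and 4291 to 4685 for PSAO.

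The comparison between genotypes asks how far these transcripts differ in jmj28-3. JMJ28 itself (AT4G21430) was listed at 3.80 and 5.54 FPKM in WT against 3.65 and 3.33 in jmj28-3 (log2 change -0.32, adjusted p = 0.327). Its transcript level checks nothing about the genotype here, since the lesion is not described. Of the 44 genes, LHCB1.4 was higher, LHCB4.3 was lower and 42 were not called by limma at an adjusted p under 0.05. Over all 20232 tested genes, 7.97% were called, 4.18% higher and 3.79% lower, and of the 1451 tested genes with a mean of at least 100 FPKM 12.7% were called. The share among the 44 was 4.55%. Of the 93 tested genes with a mean of at least 1000 FPKM, 39 of which are among the 44, 5.38% were called, and of the other 54 at that level 7.41% were called. Those 54 include many genes of the photosynthesis lists described below, such as PSAH2, PSBX, PETE2 and GAPA, and so are not an unrelated background. The median log2 change of the 44 genes was 0.03, beside -0.03 over all tested genes, with 29 values above 0 and 15 below. Values above 0 thus made up 65.9% of the 44, beside 43.4% of all tested genes and 35.2% of the other 54 with a mean of at least 1000 FPKM. In RNA from whole seedlings, fewer cells of a type and less RNA per cell cannot be told apart.

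Both jmj28-3 libraries lay above both WT libraries for 20 genes and below for 11, while the libraries of 13 genes overlapped. That is 70.5% without overlap, where all tested genes gave 55.2% and tested genes with a mean of at least 100 FPKM gave 58.6%. The 93 tested genes with a mean of at least 1000 FPKM gave 74.2%, and the 54 of them outside the 44 gave 79.6%. Counted in either direction, the share among the 44 was thus no higher than that of genes at their own level. The directions differed: of the 39 among the 44 at that level, 48.7% were higher without overlap and 17.9% lower. The other 54, among them many genes of the photosynthesis lists below, gave 20.4% higher and 59.3% lower, and all tested genes gave 22.4% and 32.7%. The difference in direction was not tested. The median absolute log2 difference between genotype means was 0.072 for the 44 genes, beside 0.045 between the WT replicates and 0.050 between the jmj28-3 replicates. For all tested genes these medians were 0.133, 0.107 and 0.096.

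**Figure D2:**
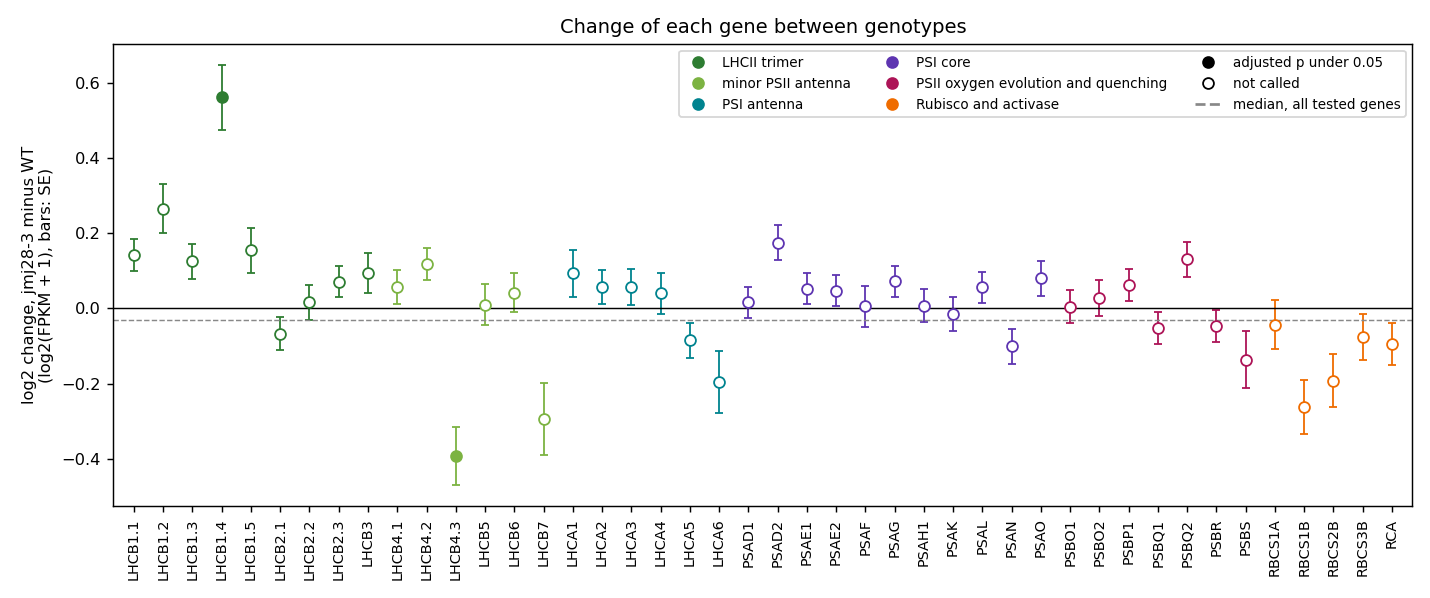
Log2 change of each gene in jmj28-3 against WT on the log2(FPKM + 1) scale, with its standard error from the limma fit, coloured by family. Filled points passed an adjusted p of 0.05, which LHCB1.4 (0.56) and LHCB4.3 (-0.39) did, and the dashed line is the median of all tested genes (-0.03).

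LHCB1, LHCB2 and LHCB3 proteins form the trimers of LHCII, the largest store of chlorophyll in the thylakoid. LHCB1.4 (AT2G34430, chromosome 2, 14524607 to 14525918, plus strand) had 1852 and 1553 FPKM in WT against 2496 and 2511 in jmj28-3. The jmj28-3 libraries were nearly equal to each other and both above WT, and the mean rose 1.47-fold, from 1702 ± 211 to 2503 ± 10.5 FPKM (SD, n = 2; log2 change 0.56, SE 0.086, adjusted p = 0.0217). The call was lost with no filter (adjusted p = 0.0681), with quantile normalization (0.0708), without a variance trend (0.0757), and without jmj28-3 replicate 1 (0.126) or jmj28-3 replicate 2 (0.182). Its adjusted p over all alternatives ran from 0.00425 to 0.182, and its log2 change from 0.43 to 0.69.

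The other 4 LHCB1 copies had smaller values on the same side. LHCB1.2 (AT1G29910) had 5760 and 6264 FPKM in WT against 7503 and 6952 in jmj28-3 (log2 change 0.27, SE 0.064, adjusted p = 0.0709). It passed when tested genes had to average 2 FPKM (adjusted p = 0.0478) and with crossed replicate numbers as a block (0.00519), an alternative chosen after seeing the data, under which LHCB1.1 (0.0368) and LHCB1.5 (0.0299) passed as well. Its adjusted p was as high as 0.509, under quantile normalization. LHCB1.5 (AT2G34420), the neighbour of LHCB1.4 on chromosome 2, had 9974 and 10827 FPKM in WT against 11904 and 11234 in jmj28-3 (log2 change 0.15, adjusted p = 0.201). LHCB1.1 (AT1G29920) had 7722 and 7809 FPKM in WT against 8649 and 8495 in jmj28-3 (log2 change 0.14, adjusted p = 0.114), and LHCB1.3, with the values given above, had a log2 change of 0.13 (adjusted p = 0.183). In each of the 5 copies both jmj28-3 libraries exceeded both WT libraries, a pattern that 22.4% of all tested genes showed, and all 5 log2 changes were above 0, except that the log2 change of LHCB1.3 was 0 under quantile normalization, which sets the highest genes by rank alone. The copies share stretches of sequence and so are not separate observations.

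Summed over the 5 copies, LHCB1 stood at 44589 and 44962 FPKM in WT against 51133 and 49822 in jmj28-3, a ratio of means of 1.13. The handling of reads shared by the copies, whose mRNAs are 1045 to 1314 bases long, can still affect this sum. The share of LHCB1.4 in this sum was 4.15% and 3.45% in WT against 4.88% and 5.04% in jmj28-3, without overlap. The shares of LHCB1.1 (17.3% and 17.4% in WT, then 16.9% and 17.1%) and LHCB1.2 (12.92% and 13.93%, then 14.67% and 13.95%) did not overlap either, the first lower and the second higher in jmj28-3. The shares of LHCB1.3 (43.2% and 41.2%, then 40.3% and 41.4%) and LHCB1.5 (22.4% and 24.1%, then 23.3% and 22.5%) did overlap. With 2 libraries a genotype, 0.33 is the smallest p an exact permutation test can return, so sums and shares are given untested.

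The LHCB2 sum over 3 genes was 11558 and 11190 FPKM in WT against 11237 and 11406 in jmj28-3, with overlapping libraries. LHCB2.1 (AT2G05100) had 4947 and 4766 FPKM in WT against 4587 and 4684 in jmj28-3 (log2 change -0.07, adjusted p = 0.428), while LHCB2.2 and LHCB2.3 had log2 changes of 0.02 and 0.07 (adjusted p = 0.874 and 0.353). LHCB3 had 5883 and 6192 FPKM in WT against 6632 and 6253 in jmj28-3 (log2 change 0.09, adjusted p = 0.356), and its sign turned under quantile normalization. The difference between the changes of LHCB1 and LHCB2 was not tested.

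**Figure D3:**
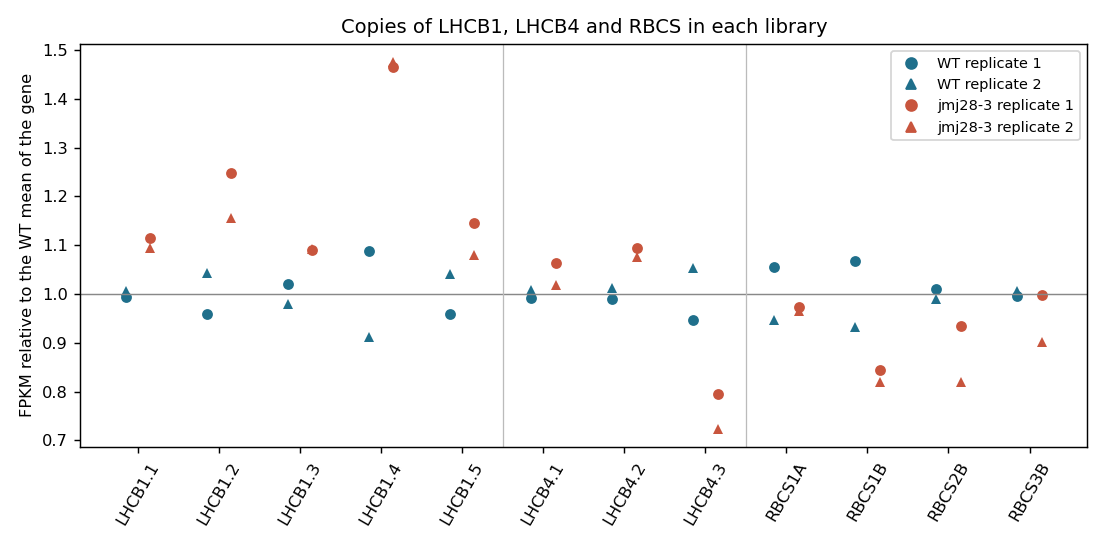
FPKM of the LHCB1, LHCB4 and RBCS copies in each library, divided by the WT mean of the same gene; blue is WT and red is jmj28-3, with circles for replicate 1 and triangles for replicate 2. All 5 LHCB1 copies have both red points above both blue points, LHCB1.4 with a ratio of means of 1.47, while LHCB4.3 has a ratio of means of 0.760 and RBCS1B of 0.832.

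LHCB4, LHCB5 and LHCB6 are the monomeric antenna proteins, also called CP29, CP26 and CP24, that connect LHCII trimers to the photosystem II core. LHCB4.3 (AT2G40100, chromosome 2, 16745628 to 16747424, plus strand), a CP29 form of low level whose protein lacks part of the C-terminal region of the other CP29 forms, had 118 and 131 FPKM in WT against 99.2 and 90.3 in jmj28-3. Both jmj28-3 libraries lay below both WT libraries, and the mean was 1.32-fold lower in jmj28-3, going from 125 ± 9.37 to 94.7 ± 6.26 FPKM (SD, n = 2; log2 change -0.39, SE 0.077, adjusted p = 0.0417). This call was close to the threshold: it was lost with no filter (adjusted p = 0.0820), with median-of-ratios scaling (0.0565), without a variance trend (0.110), with replicate number as a block (0.0986), and without any 1 library, namely WT replicate 1 (0.0897), WT replicate 2 (0.149), jmj28-3 replicate 1 (0.112) or jmj28-3 replicate 2 (0.246).

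The abundant CP29 genes had values on the other side of 0. LHCB4.2 (AT3G08940) had 3034 and 3103 FPKM in WT against 3357 and 3302 in jmj28-3 (log2 change 0.12, adjusted p = 0.167), and LHCB4.1 had 3577 and 3635 in WT against 3832 and 3674 in jmj28-3 (log2 change 0.06, adjusted p = 0.501). The share of LHCB4.3 in the LHCB4 sum was 1.75% and 1.91% in WT against 1.36% and 1.28% in jmj28-3. LHCB4.3 was 65.7% and 66.9% identical in coding sequence to LHCB4.1 and LHCB4.2 and shared no window of 50 bases with any other gene. LHCB5 (AT4G10340), the highest of this family, had 5286 and 5656 FPKM in WT against 5637 and 5380 in jmj28-3 (log2 change 0.01, adjusted p = 0.935), and LHCB6 had a log2 change of 0.04 (adjusted p = 0.688), both with overlapping libraries. LHCB7 (AT1G76570), a rare member of the antenna family, had 22.1 and 24.2 FPKM in WT against 20.1 and 17.3 in jmj28-3 (log2 change -0.29, adjusted p = 0.136).

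The LHCA proteins form the antenna belt of photosystem I, with LHCA1 to LHCA4 as its main parts. None of the 6 genes was called. LHCA1 (AT3G54890), the highest, had 5611 and 6126 FPKM in WT against 6455 and 6062 in jmj28-3 (log2 change 0.09, adjusted p = 0.427), with overlapping libraries. LHCA2, LHCA3 and LHCA4 had log2 changes of 0.06, 0.06 and 0.04 (adjusted p from 0.510 to 0.715). LHCA6 (AT1G19150) had 171 and 186 FPKM in WT against 166 and 145 in jmj28-3 (log2 change -0.20, adjusted p = 0.224), and LHCA5 had 219 and 225 in WT against 207 and 212 in jmj28-3 (log2 change -0.08, adjusted p = 0.337). Each of the 4 antenna genes of lowest level, LHCB4.3, LHCB7, LHCA5 and LHCA6, thus had both jmj28-3 libraries below both WT libraries, where 32.7% of all tested genes did. These 4 were grouped after their values were seen, and the count is given with no test.

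None of the 11 photosystem I core genes was called, and their log2 changes ran from -0.10 for PSAN to 0.17 for PSAD2, with a median of 0.05. PSAD and PSAE sit on the stroma side and dock ferredoxin. PSAD2 (AT1G03130) had 1594 and 1657 FPKM in WT against 1875 and 1796 in jmj28-3 (SE 0.047, adjusted p = 0.0911; 0.0264 with the crossed block), while its partner copy PSAD1 had 3447 and 3486 in WT against 3523 and 3489 in jmj28-3 (log2 change 0.02, adjusted p = 0.853). The share of PSAD2 in the PSAD sum was 31.6% and 32.2% in WT against 34.7% and 34.0% in jmj28-3, without overlap. PSAE1 and PSAE2, a pair with the same role, both had a log2 change of 0.05 (adjusted p = 0.499 and 0.554), and the share of PSAE2 stayed between 19.4% and 20.0% in all 4 libraries.

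PSAO (AT1G08380), the core gene with the highest level and a subunit near the LHCII docking site, had 4291 and 4386 FPKM in WT against 4685 and 4489 in jmj28-3 (log2 change 0.08, adjusted p = 0.356). PSAN, which helps plastocyanin bind on the lumen side, had 2978 and 3057 FPKM in WT against 2881 and 2750 in jmj28-3 (adjusted p = 0.264). PSAF, the plastocyanin docking subunit, PSAH1, PSAK, PSAG and PSAL had log2 changes of 0.01, 0.01, -0.01, 0.07 and 0.06 (adjusted p from 0.365 to 0.962). The signs of PSAF, PSAH1 and PSAK were not stable across alternatives.

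On the oxygen-evolving side of photosystem II, none of the 7 genes was called and the median log2 change was 0.00. PSBQ2 (AT4G05180) had 1767 and 1852 FPKM in WT against 1994 and 1966 in jmj28-3 (log2 change 0.13, SE 0.045, adjusted p = 0.158), while PSBQ1 had 2792 and 2790 in WT against 2723 and 2662 in jmj28-3 (log2 change -0.05, adjusted p = 0.508). The share of PSBQ2 in the PSBQ sum was 38.8% and 39.9% in WT against 42.3% and 42.5% in jmj28-3. The manganese-stabilising PSBO1 and PSBO2 had log2 changes of 0.00 and 0.03 (adjusted p = 0.966 and 0.769), and PSBP1 had 0.06 (adjusted p = 0.429).

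PSBR (AT1G79040), the highest of this group, had 10360 and 10569 FPKM in WT against 10158 and 10106 in jmj28-3 (log2 change -0.05, adjusted p = 0.572). PSBS (AT1G44575), the sensor of lumen pH that switches on the dissipation of excess light energy as heat, had 2343 and 2626 FPKM in WT against 2365 and 2155 in jmj28-3, with overlapping libraries (log2 change -0.14, adjusted p = 0.342). The family sum had a ratio of 0.991 to WT, which became 1.02 with median-of-ratios scaling.

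All 5 log2 changes of the Rubisco family were below 0, except that RBCS1A was above 0 without WT replicate 1 and RCA under quantile normalization, and none of the 5 genes was called. Among all tested genes 56.6% of values were below 0. The RBCS copies share stretches of sequence and so are not separate observations. RBCS1B (AT5G38430) had 5459 and 4772 FPKM in WT against 4318 and 4194 in jmj28-3, which was 1.2-fold lower on the means (log2 change -0.26, SE 0.072, adjusted p = 0.0955; 0.0425 with the crossed block). RBCS2B (AT5G38420) had 10312 and 10096 FPKM in WT against 9531 and 8371 in jmj28-3 (log2 change -0.19, adjusted p = 0.178). RBCS1A and RBCS3B, with the values given above, had log2 changes of -0.04 and -0.08 (adjusted p = 0.739 and 0.518) and overlapping libraries. Both were at 0 under quantile normalization, and RBCS1A was at 0.03 without WT replicate 1.

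The RBCS sum was 60293 and 56716 FPKM in WT against 56299 and 53151 in jmj28-3, with a ratio of means of 0.935, and each jmj28-3 library was below both WT libraries. The gap between the nearest libraries of the genotypes was smaller than the gap between replicates. The share of RBCS1B in the sum was 9.05% and 8.41% in WT against 7.67% and 7.89% in jmj28-3, with no overlap, and that of RBCS2B, 17.1% and 17.8% against 16.9% and 15.7%, did not overlap either. The share of RBCS1A, 45.9% and 43.8% against 45.4% and 47.7%, overlapped. RCA (AT2G39730) had 9568 and 9726 FPKM in WT against 9415 and 8665 in jmj28-3 (log2 change -0.09, adjusted p = 0.369), and it was at 0.02 under quantile normalization.

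The promoters of the called genes LHCB1.4 and LHCB4.3 are shown, each beside that of an abundant relative that was not called. Each is the 250 bases before the annotated gene start in RefSeq TAIR10.1, 5′ to 3′ on the gene's strand. Capitals mark any match, on either strand, to a G-box (CACGTG), an I-box (GATAAG), the GLK-type motif (CCAATC), the evening element (AAAATATCT) or a TATA box (TATAAA).
LHCB1.4, chr2:14524357-14524606, plus strand: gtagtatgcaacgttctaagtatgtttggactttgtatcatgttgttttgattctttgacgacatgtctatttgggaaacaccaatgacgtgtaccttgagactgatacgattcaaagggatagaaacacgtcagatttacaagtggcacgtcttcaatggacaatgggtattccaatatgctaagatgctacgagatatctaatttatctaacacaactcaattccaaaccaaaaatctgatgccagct
LHCB1.5, chr2:14523569-14523818, minus strand: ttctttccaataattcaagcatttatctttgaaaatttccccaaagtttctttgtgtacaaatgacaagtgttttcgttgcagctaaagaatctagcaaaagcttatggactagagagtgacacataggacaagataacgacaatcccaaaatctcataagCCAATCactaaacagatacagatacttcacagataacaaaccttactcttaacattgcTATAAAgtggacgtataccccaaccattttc
LHCB4.3, chr2:16745378-16745627, plus strand: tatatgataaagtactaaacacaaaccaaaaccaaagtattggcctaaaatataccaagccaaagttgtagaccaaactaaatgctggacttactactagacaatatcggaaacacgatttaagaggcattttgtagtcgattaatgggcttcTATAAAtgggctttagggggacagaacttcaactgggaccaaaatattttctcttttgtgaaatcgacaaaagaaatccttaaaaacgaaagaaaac
LHCB4.1, chr5:208616-208865, plus strand: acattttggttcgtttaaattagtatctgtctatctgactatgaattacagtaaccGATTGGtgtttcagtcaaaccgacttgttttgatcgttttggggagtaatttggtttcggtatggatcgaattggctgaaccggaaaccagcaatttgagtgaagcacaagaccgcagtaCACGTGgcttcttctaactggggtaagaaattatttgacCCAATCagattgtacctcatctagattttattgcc

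These letters gave no match in the window of LHCB1.4, a GLK-type motif and a TATA box in that of LHCB1.5, a TATA box in that of LHCB4.3, and a G-box with 2 GLK-type motifs in that of LHCB4.1. The annotated gene start lies farther from the coding start in LHCB1.4 than in LHCB1.5, so their windows may not be matching regions. Whether the lack of a match in LHCB1.4 depends on that annotation was not tested. Among the LHCB1 copies that were not called, LHCB1.1 and LHCB1.2 had no match either, and LHCB1.3 had a GLK-type motif. Over the 44 windows, 12 held the GLK-type motif (27.3%, against 10.2% of 27443 protein-coding genes), 9 held a G-box (20.5% against 6.49%) and 10 an I-box (22.7% against 12.3%). The evening element was in 1 window (2.27% against 2.36%), and 19 held the TATA box (43.2% against 47.3%). The GLK-type motif was in 5 of 9 LHCII trimer genes, 2 of 6 minor antenna genes and 3 of 6 LHCA genes, and in none of the 11 photosystem I core genes. Matches describe these windows and show no binding.

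Beyond the 44 genes, 86 further genes of photosynthesis in 8 lists were tested, with 2 calls higher, 6 lower and no call on 78. The 9.30% called is near the 7.97% of all tested genes. Of the 9 other nuclear photosystem subunits none was called, with a median log2 change of 0.01. The 2 with the smallest p were PSB28, with 361 and 331 FPKM in WT against 321 and 308 in jmj28-3 (adjusted p = 0.228), and the thylakoid-bending protein gene CURT1B, with 1848 and 1940 in WT against 1813 and 1692 in jmj28-3 (adjusted p = 0.280).

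**Figure D4:**
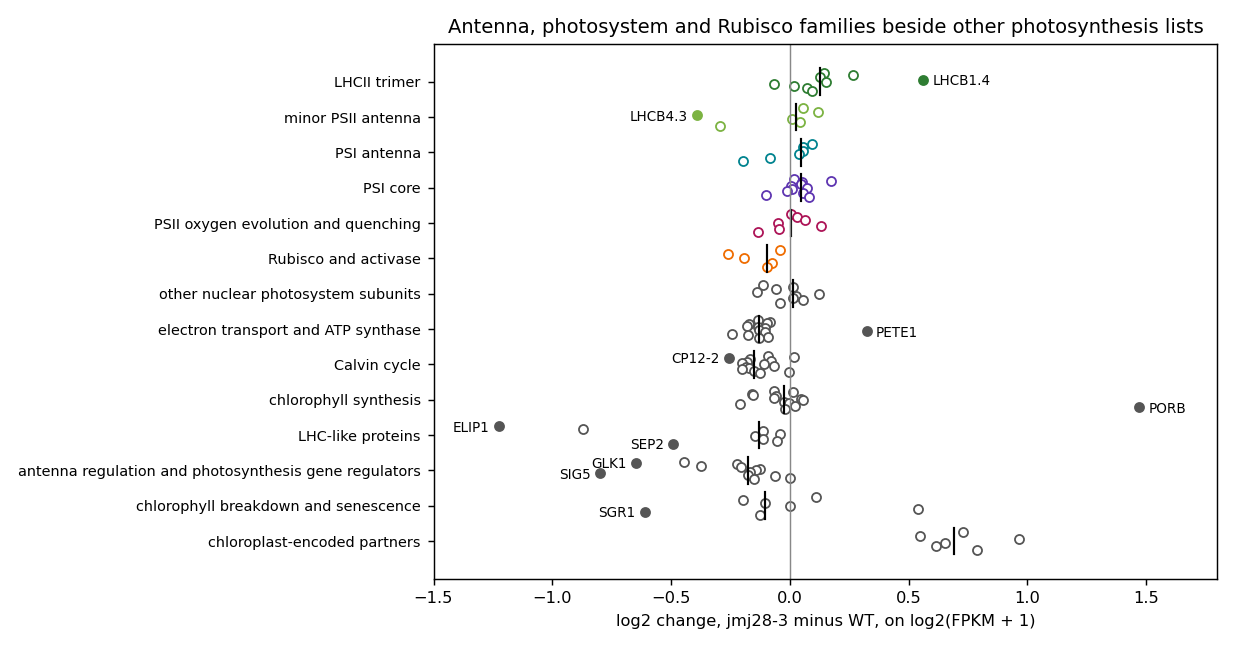
Log2 change in jmj28-3 against WT of every tested gene in the 6 families (coloured) and the 8 further lists (grey), with a black bar at each median; filled points passed an adjusted p of 0.05 and carry their names. The medians of the LHCII trimer family (0.13) and the Calvin cycle list (-0.15) lie on opposite sides of 0, and PORB (1.47) and ELIP1 (-1.22) lie farthest out among the called genes.

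Electron carriers and carbon-fixing enzymes had mostly small negative values. Over all tested genes, 56.6% of values were below 0. In the electron transport and ATP synthase list, 13 of 14 values were below 0 (median -0.13), and the only call was on PETE1, the lesser plastocyanin gene, with 355 and 381 FPKM in WT against 474 and 447 in jmj28-3 (log2 change 0.32, adjusted p = 0.0313). In the Calvin cycle list 14 of 15 values were below 0 (median -0.15), and in 13 genes both jmj28-3 libraries lay below both WT libraries, where 32.7% of all tested genes did. That share was 35.3% for tested genes with a mean of at least 100 FPKM and 41.9% for those with a mean of at least 1000 FPKM. Of these 15, CP12-2, for a regulator that binds GAPDH and phosphoribulokinase, was lower, with 777 and 789 FPKM in WT against 680 and 631 in jmj28-3 (log2 change -0.26, adjusted p = 0.0457). The share called was 7.14% in the electron transport and ATP synthase list and 6.67% in the Calvin cycle list, beside 7.97% of all tested genes. The calls on PETE1 and CP12-2 were lost with no filter (adjusted p = 0.0687 and 0.0922), without a variance trend (0.113 and 0.153), with the replicate block (0.0941 and 0.127) and without any 1 library, with adjusted p up to 0.165 without jmj28-3 replicate 1 for PETE1 and 0.254 without jmj28-3 replicate 2 for CP12-2. PETE1 was also lost with quantile normalization (0.0538) and CP12-2 with median-of-ratios scaling (0.0800).

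In chlorophyll synthesis 1 of 14 tested genes was called (7.14%, beside 7.97% of all tested genes). PORB, for the light-dependent protochlorophyllide oxidoreductase that works in green tissue, had 67.1 and 71.1 FPKM in WT against 177 and 211 in jmj28-3. Its mean rose 2.81-fold (log2 change 1.47, SE 0.092, adjusted p = 0.00254), and the call held under all 14 alternatives. PORC, of the same enzyme family, had a log2 change of -0.02 (adjusted p = 0.880), and PORA was below the level for a test, at 0.18 to 0.35 FPKM.

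The LHC-like proteins, relatives of the antenna of which some accumulate under stress, had 8 of 8 values below 0, where 56.6% of all tested genes did, and 2 calls. ELIP1, an early light-induced protein, had 161 FPKM in both WT libraries and 57.1 and 81.9 in jmj28-3, 2.32-fold lower on the means (log2 change -1.22, adjusted p = 0.0140). The call on ELIP1 was lost without a variance trend (adjusted p = 0.0509), without WT replicate 1 (0.102) and without WT replicate 2 (0.0925). SEP2, a stress-enhanced protein, had 191 and 187 FPKM in WT against 136 and 133 in jmj28-3 (log2 change -0.49, adjusted p = 0.00578), and its call was lost without jmj28-3 replicate 1 (0.0546) or jmj28-3 replicate 2 (0.0846).

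Among 13 regulators of the antenna and of photosynthesis genes, 2 were lower, where 3.79% of all tested genes were, and 12 of 13 had both jmj28-3 libraries below both WT libraries, where 32.7% of all tested genes did. GLK1, a GARP-type activator of antenna and chlorophyll genes, had 136 and 110 FPKM in WT against 80.6 and 75.4 in jmj28-3, 1.58-fold lower (log2 change -0.65, adjusted p = 0.0264). Its call was lost with no filter (0.0679), without a variance trend (0.0765), and without WT replicate 1 (0.0658), jmj28-3 replicate 1 (0.118) or jmj28-3 replicate 2 (0.203). SIG5, a sigma factor that guides the chloroplast RNA polymerase, had 75.9 and 82.6 FPKM in WT against 48.2 and 42.0 in jmj28-3 (log2 change -0.80, adjusted p = 0.00803), and lost its call without WT replicate 2 (0.0578) or jmj28-3 replicate 2 (0.0760).

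Of 7 tested genes of chlorophyll breakdown and senescence 1 was called (14.3%, beside 7.97% of all tested genes). SGR1, for the magnesium dechelatase that starts the breakdown, was lower, with 18.2 and 15.3 FPKM in WT against 9.72 and 11.6 in jmj28-3 (log2 change -0.61, adjusted p = 0.0433). Its call was lost with no filter (adjusted p = 0.0916), quantile normalization (0.0501), no variance trend (0.0864) or the replicate block (0.0924) and without any 1 library, up to 0.183 without jmj28-3 replicate 1. SAG12, a marker of leaf senescence, was listed at 0 in all 4 libraries. The chloroplast-encoded partners were low in these polyadenylated libraries: the photosystem II reaction centre protein A gene (ATCG00020) had 9.51 and 10.1 FPKM in WT against 25.6 and 15.8 in jmj28-3 (adjusted p = 0.0572), and the protein D gene (ATCG00270) had 1.32 and 1.76 against 3.13 and 2.64 (adjusted p = 0.0764). None of the 6 that were tested was called. In all 6, both jmj28-3 libraries lay above both WT libraries, where 22.4% of all tested genes did. Their median log2 change was 0.69, at mean levels from 1.48 FPKM for psaA to 15.3 for ATCG00020. All genes of the chloroplast genome made up 0.0687% and 0.0711% of the summed FPKM in WT against 0.213% and 0.146% in jmj28-3.

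Markers of other tissues and cell types were measured in the same libraries, and their part in the results was not tested. Over all tested genes, 32.7% were lower without overlap and 22.4% higher, which applies to each marker count below. The summed FPKM of 6 root markers was 1314 and 1276 in WT against 1253 and 1192 in jmj28-3, and 5 of the 6 had both jmj28-3 libraries below both WT libraries. Most of this sum was PYK10 (1221 and 1183 against 1178 and 1128 FPKM), while the median log2 change of the 6 was -0.41. SCR was lower (log2 change -0.37, adjusted p = 0.0364), and TIP2;3, COBL9 and EXP7 had log2 changes of -0.51, -0.48 and -0.45 (adjusted p = 0.105, 0.0956 and 0.0973). The sum of 4 guard cell markers was 1286 and 1412 in WT against 1452 and 1385 in jmj28-3, with 2 of 4 lower without overlap. Most of it was TGG1 (1247 and 1371 against 1418 and 1354 FPKM), and MYB60 was lower (log2 change -0.47, adjusted p = 0.0262). The sum of 4 phloem and xylem markers was 132 and 132 against 140 and 132, with 2 of 4 higher without overlap, and that of 3 epidermis markers was 301 and 309 against 352 and 349, with 2 of 3 higher without overlap, of which PDF1 was called higher (log2 change 0.27, adjusted p = 0.0345). The 3 seed storage markers summed to at most 0.53 FPKM in any library, and 1 was listed at 0 in all.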

How the data were processed

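The authors deposited FPKM values for 4 libraries of polyadenylated RNA in 1 table, and the labels assigned every value column to a library (0 columns were unmatched). The submitters' processing notes list TopHat, RSEM, edgeR and the build TAIR10, and give neither version nor setting nor order. Whether counting used strand is not stated, so the values of overlapping or antisense genes may be mixed. FPKM hold no read counts and absolute depth is unknown. Relative to WT replicate 1, steps between low FPKM gave a depth of 1.08 for WT replicate 2, of 1.18 for jmj28-3 replicate 1 and of 0.986 for jmj28-3 replicate 2. Library sums of FPKM ran from 983897 to 991510.

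The test was limma 3.58.1 (R 4.3.3) on log2(FPKM + 1), a scale that understates changes of low genes. Genotype was the only term, the prior variance followed a trend with level, genes needed a mean of 0.5 FPKM, and two-sided p-values were adjusted by Benjamini-Hochberg over all tested genes, with calls at 0.05. Folds are ratios of mean FPKM. The step was tested on simulated data. Positions and sequences came from RefSeq TAIR10.1 by gene identifier, since the table holds no coordinates. Coding sequences, used because no protein table was at hand, were aligned with Biopython 1.88, and gaps count as differences. Alternatives changed the pseudocount, filter, scaling, variance trend, replicate block and set of libraries.

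The members, lists and tests were chosen with earlier results of these data known. Genes given value by value are every called member, the member of each family with the smallest p and that with the highest level, members without overlap and with a log2 change of at least 0.3, and, from each further list, up to 4 called genes or else the 2 with the smallest p. The others were chosen after their values were seen. Deviations of same-numbered libraries from their group means correlated at -0.133. With 2 libraries a genotype, their deviations mirror each other, and this value cannot decide whether the numbers pair the libraries.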

Additional observations from a re-analysis of the deposited data

How the results depend on the processing

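Over all tested genes 846 were higher and 767 lower. These were 526 and 351 with no filter, 469 and 287 without a variance trend, 534 and 328 with the replicate block, and 70 to 398 and 21 to 164 when 1 library was left out, which leaves 1 residual degree of freedom and assumes that the lone library varies like the others. Among the 44 genes 1 was higher and 1 lower. With no filter and without a variance trend these were 0 and 0, at a minimum mean of 2 FPKM 2 were higher, with quantile normalization 0 were higher, with median-of-ratios scaling or the replicate block 0 were lower, and in leave-outs 0 to 1 were higher and 0 lower. Of the listed pathway genes 2 were higher and 6 lower. No filter left 3 lower, no variance trend 1 higher and 2 lower, quantile normalization and the replicate block 1 higher, and leave-outs 1 higher and 1 to 2 lower. With crossed replicate numbers as a block, chosen after seeing the data, 1158 genes were higher and 1129 lower, with 5 and 2 of the 44 genes and 5 and 16 of the pathway genes.

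The median log2 change of the 44 genes was 0.03, 0.0687 with median-of-ratios scaling, 0 with quantile normalization, and 0.0148 to 0.0598 in leave-outs. Median-of-ratios scaling moved the median of all tested genes from -0.03 to 0.00. It gave ratios of summed FPKM of 1.12 for the LHCII trimer family (from 1.1), 1.05 for the photosystem I core (from 1.02) and 1.02 for the oxygen evolution family (from 0.991). Of 616 values of single members, 21 in 11 genes changed direction, all in genes with log2 changes under 0.10 in size. Quantile normalization gave -0.0472 for LHCB3, -0.0177 for PSAF, -0.100 for PSAH1, -0.0037 for PSBO2 and 0.020 for RCA. Rescaling to the same sum gave -0.00086 for PSAF and -0.0025 for PSBO1, and median-of-ratios scaling 0.0208 for PSAK. Leave-outs ran from -0.0173 to 0.0497 for LHCB2.2, -0.0386 to 0.0590 for LHCB5, -0.0172 to 0.0975 for LHCA4, -0.0489 to 0.0604 for PSAF, -0.0181 to 0.0337 for PSAH1, -0.0444 to 0.0168 for PSAK, -0.0226 to 0.0309 for PSBO1, -0.0115 to 0.0675 for PSBO2 and -0.122 to 0.0349 for RBCS1A. The cause was not tested.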
